A study of Mus musculus with 4 samples.

Results

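Forkhead transcription factors share a DNA-binding domain, the winged helix or forkhead box, and are named Fox plus a letter for the subfamily and a number. The genes described here were the autosomal protein-coding genes whose symbol is Fox, a letter from a to s and a number, in the RefSeq annotation of the mouse assembly GRCm38.p6, the assembly that the name mm10 also stands for. The rule found 41 genes of 20665 autosomal protein-coding genes. By subfamily, 16 were set apart as widely expressed (Foxj, Foxk, Foxm, Foxn, Foxo and Foxp), 24 as lineage regulators (Foxa to Foxi, Foxl, Foxq and Foxs), and 1, Foxr1, fell in neither class.

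The cells were Bruce-4 mouse embryonic stem (ES) cells, a line of C57BL/6J origin grown in serum with 2i and LIF, with no genetic change or treatment named in the labels. For each library 10000000 cells were fixed in 1% formaldehyde for 10 min and taken through ChIP-exo, in which an exonuclease digests immunoprecipitated DNA up to the crosslinked protein. The 4 libraries used antibodies to H3K4me3 (1 library), CTCF (2 libraries) and RAD21 (1 library), and 3 peak lists were used, since the CTCF list is a union recorded under the second CTCF library. H3K4me3 is a histone mark of promoters, CTCF is a DNA-binding protein at which cohesin halts, and RAD21 is a subunit of the cohesin ring. A list row holds the coordinates of 1 peak, and the measured values were therefore where peaks lie and how long they are. Peak height, depth and control libraries were not used here, and 1 line with 1 list per antibody gives no replicate spread, so no difference below was tested. Intervals on shares are Wilson 95% intervals and cover counting error only.

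On the autosomes the H3K4me3 list held 21006 peaks with a median length of 683 bp, the CTCF list 50546 with a median of 104 bp, and the RAD21 list 74004 with a median of 141 bp. The ES cell label was set against marker genes by their H3K4me3. It lay within 1 kb of an end of 7 of 8 ES cell markers (Esrrb had peaks in its body alone), 3 of 8 fibroblast markers (Thy1, Twist1 and Twist2), 1 of 3 hepatocyte markers and 1 of 3 neuron markers. Of all autosomal protein-coding genes 58.0% had it there.

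Several lineage members are known to specify organs: Foxa2 and Foxa1 the endoderm, Foxc1, Foxc2 and Foxf1 mesoderm derivatives, Foxl2 the ovary and Foxe1 the thyroid. Foxd3 and Foxh1 are also known in pluripotent cells, Foxd3 as a factor that ES cells need for self-renewal and Foxh1 as the DNA-binding partner of SMAD proteins in Nodal signalling. Of the other class, FOXO proteins are held in the cytoplasm by insulin and AKT signalling, FOXM1 drives mitotic genes, and FOXK and FOXP proteins act mainly as repressors. The subfamily letter is a coarse guide to expression: Foxj1, Foxn1 and Foxn4, placed by letter with the widely expressed genes, are known for motile cilia, the thymic epithelium and the retina.

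The RefSeq promoter table, which covers 250 bases before to 50 bases after a listed start, held 26 of the 41 genes in 30 entries. Shown here are the 6 promoters that the descriptions below return to, each 300 bases read on the gene's own strand in GRCm38.p6. Foxd2 (chr4:114908849-114909148, minus strand) and Foxa3 (chr7:19023490-19023789, minus strand) are the members whose promoter window held a CTCF peak, and capitals mark the bases inside that peak. Foxj3 (chr4:119539411-119539710, plus strand) and Foxp4 (chr17:47924583-47924882, minus strand) are those with a RAD21 peak and no CTCF peak there, and capitals mark the RAD21 peak. Foxk2 (chr11:121259737-121260036, plus strand), with H3K4me3 nearby, has the most CG dinucleotides of the 30 entries, and Foxi1 (chr11:34208040-34208339, minus strand), without it, is among those with the fewest, and capitals mark every CG.
Foxd2: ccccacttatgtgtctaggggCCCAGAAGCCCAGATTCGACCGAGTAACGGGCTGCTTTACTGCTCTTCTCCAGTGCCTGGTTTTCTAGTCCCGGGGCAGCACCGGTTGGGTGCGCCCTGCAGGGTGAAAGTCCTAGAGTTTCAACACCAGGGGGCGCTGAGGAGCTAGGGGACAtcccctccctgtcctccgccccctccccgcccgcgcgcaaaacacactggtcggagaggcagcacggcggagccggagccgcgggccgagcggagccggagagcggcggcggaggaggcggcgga
Foxa3: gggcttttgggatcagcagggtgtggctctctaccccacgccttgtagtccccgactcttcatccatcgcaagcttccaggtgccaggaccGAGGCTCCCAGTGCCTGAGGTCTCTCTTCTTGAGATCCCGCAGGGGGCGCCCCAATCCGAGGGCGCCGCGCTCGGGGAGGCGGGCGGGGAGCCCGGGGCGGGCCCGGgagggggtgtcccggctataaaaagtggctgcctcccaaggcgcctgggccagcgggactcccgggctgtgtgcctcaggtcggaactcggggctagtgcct
Foxj3: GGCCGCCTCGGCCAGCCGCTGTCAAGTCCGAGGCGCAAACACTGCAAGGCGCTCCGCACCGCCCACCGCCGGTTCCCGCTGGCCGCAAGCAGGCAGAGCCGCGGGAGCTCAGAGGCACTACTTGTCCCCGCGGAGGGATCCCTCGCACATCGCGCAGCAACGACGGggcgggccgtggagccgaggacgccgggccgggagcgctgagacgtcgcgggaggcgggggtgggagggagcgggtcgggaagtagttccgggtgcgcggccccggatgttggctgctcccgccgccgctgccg
Foxp4: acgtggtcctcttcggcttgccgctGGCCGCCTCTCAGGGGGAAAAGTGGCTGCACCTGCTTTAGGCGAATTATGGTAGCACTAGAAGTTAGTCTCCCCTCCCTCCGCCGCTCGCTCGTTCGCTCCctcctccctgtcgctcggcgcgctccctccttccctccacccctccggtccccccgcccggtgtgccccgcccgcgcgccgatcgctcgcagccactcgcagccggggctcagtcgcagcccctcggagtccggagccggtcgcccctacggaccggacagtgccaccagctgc
Foxk2: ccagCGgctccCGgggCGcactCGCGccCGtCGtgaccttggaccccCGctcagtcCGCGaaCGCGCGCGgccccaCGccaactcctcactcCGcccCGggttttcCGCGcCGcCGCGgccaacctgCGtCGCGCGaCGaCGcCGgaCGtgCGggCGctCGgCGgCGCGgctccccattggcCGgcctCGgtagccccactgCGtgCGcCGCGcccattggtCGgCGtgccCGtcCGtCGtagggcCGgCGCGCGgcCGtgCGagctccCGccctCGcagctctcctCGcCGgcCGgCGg
Foxi1: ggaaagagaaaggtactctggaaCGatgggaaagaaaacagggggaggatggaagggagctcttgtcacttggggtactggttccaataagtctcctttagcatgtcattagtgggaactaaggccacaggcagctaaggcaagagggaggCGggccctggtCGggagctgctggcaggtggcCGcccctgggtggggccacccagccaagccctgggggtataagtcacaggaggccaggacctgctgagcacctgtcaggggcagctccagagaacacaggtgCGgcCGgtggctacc

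H3K4me3 was listed at most forkhead genes in these ES cells, and the members without it at an end were all lineage regulators. A peak lay within 1 kb of a gene end, counted as an overlap of at least 1 bp with that window, at 36 of 41 members (87.8%, interval 74.5 to 94.7%). Over all autosomal protein-coding genes the share was 58.0%. All 16 widely expressed members had one (100%, interval 80.6 to 100%) and 19 of 24 lineage members did (79.2%, interval 59.5 to 90.8%), so the intervals of the classes overlapped. The lineage members are short, with a median gene length of 3095.5 bp and 23 of 24 under 10 kb, against 53707 bp in the other class. Of all genes under 10 kb, 42.4% had H3K4me3 at an end, and of those of 10 kb or more 66.5% did.

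**Figure D1:**
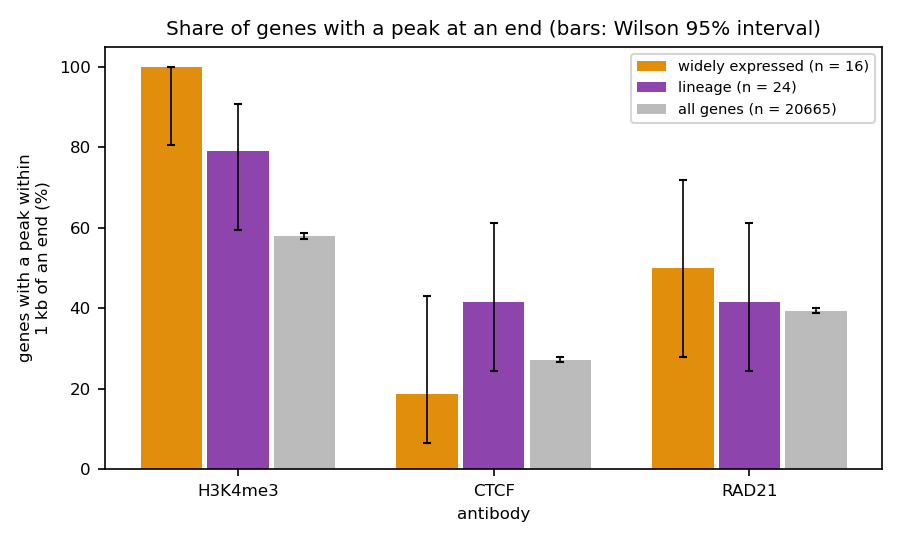
Share of genes (%, y axis) with a peak within 1 kb of a gene end for each antibody (x axis), in the 16 widely expressed and 24 lineage forkhead genes and over all 20665 autosomal protein-coding genes, with Wilson 95% intervals as bars. H3K4me3 was at 100% and 79.2% of the classes against 58.0% of all genes, while CTCF was at 18.8% and 41.7% against 27.2%.

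In both classes the longest H3K4me3 peak at marked ends had a median below that of all marked genes, but the summed length did not. The longest H3K4me3 peak at a member's ends had a median of 875.5 bp (318 to 1818 bp, 36 members), beside a median of 927 bp over all marked genes. The medians of the classes, 891 bp in the widely expressed and 849 bp in the lineage members, were close. Of the 41 members 10 had 2 or more H3K4me3 peaks at their ends, against 10.5% of all genes, marked or not. Among marked genes alone, this was 10 of 36 members against 2172 of 11977 genes. Summed over the ends, the median length was 1163 bp in the widely expressed and 1026 bp in the lineage members. Over all marked genes it was 1025 bp. With H3K4me3 peaks above that list's median length alone, 11 of 24 lineage members (45.8%) and 13 of 16 widely expressed ones (81.2%) had one at an end, 24 of 41 in all (58.5%), against 44.0% of all genes. The lineage share was then near that of all genes. Foxp1, known from B cell and motor neuron development, had the longest, an 1818 bp peak at chromosome 6, 99520798 to 99522615, longer than in 97.6% of marked genes. Foxo1 followed with 1712 bp at chromosome 3, 52268767 to 52270478, starting 430 bp downstream of the listed start, and a separate 631 bp peak covered the start itself. Foxp4 had 1652 bp at chromosome 17, 47923566 to 47925217, across its start.

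Among the lineage members Foxq1, known for hair shaft and stomach differentiation, had the longest H3K4me3 peak, 1472 bp at chromosome 13, 31558518 to 31559989. Foxd4 had 1367 bp at chromosome 19, 24899623 to 24900989, and Foxl2 1349 bp at chromosome 9, 98954999 to 98956347. These reached the upper part of the range in all genes, Foxq1 being longer than 89.9% of marked genes. The shortest in the class were Foxs1 with 318 bp and Foxb1, a regulator of the hypothalamus, with 402 bp. Of the members known in ES cells, Foxd3 had 592 bp and 543 bp peaks, one towards each end of its 2373 bp gene, and Foxh1 a 655 bp peak 88 bp outside the gene and a 753 bp peak within. The longest peak of each gene was below the median of all marked genes. Summed over the ends, Foxd3 reached 1135 bp, above the summed median of 1025 bp, and Foxh1 stayed below it at 655 bp.

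Shortest of the 16 widely expressed members were Foxj1 with 385 bp, Foxn1 with 512 bp and Foxn4 with 574 bp, all known from particular cell types. Foxn3, next, had 742 bp. Foxp1, also known from particular cell types, had the longest of the class, 1818 bp. Foxm1 had 1449 bp, Foxn2 1348 bp, Foxj3 1240 bp and Foxo6 1053 bp. The others, Foxp2, Foxk1, Foxj2, Foxk2 and Foxo3, lay between 836 and 899 bp.

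**Figure D2:**
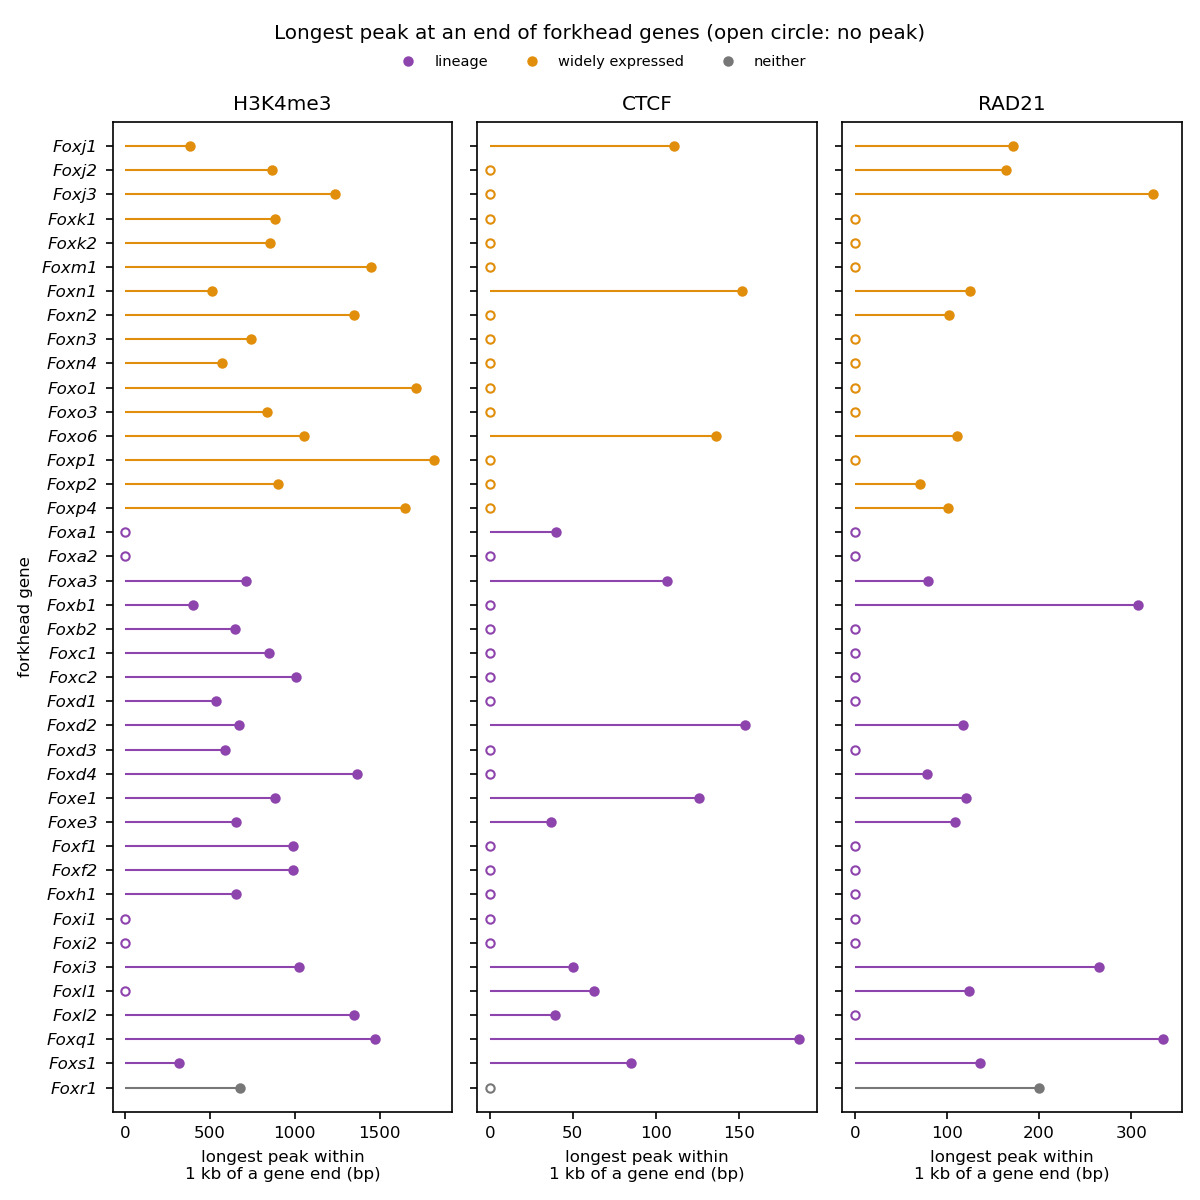
Length in bp (x axis) of the longest peak within 1 kb of an end of each forkhead gene drawn (y axis), in 1 panel per antibody, coloured by class, with an open circle where no peak was listed. The H3K4me3 panel has 5 open circles, all at lineage genes, and reaches 1818 bp at Foxp1, and the CTCF and RAD21 panels hold 13 and 19 genes.

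The 5 members without H3K4me3 at an end were all lineage regulators, and they fell into 2 kinds. Foxa1 and Foxa2, the pioneer factors of endoderm, had a peak in the body. At Foxa1 it was 523 bp long (chromosome 12, 57545223 to 57545745) and lay 366 to 888 bp downstream of the start in the promoter table, which is inside the outermost annotated end. It overlapped CTCF (a peak of 243 bp) as well as RAD21 (a peak of 366 bp). At Foxa2 it was 294 bp long (chromosome 2, 148044266 to 148044559), the shortest length in the whole H3K4me3 list, and lay 905 to 1198 bp downstream of 1 of 3 listed starts.

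Foxi1, known from ion-transporting cells of the kidney and inner ear, Foxi2 and Foxl1, a gene of gut mesenchyme, had no H3K4me3 at an end or in the body. The nearest peak lay 115215 bp from Foxi1, 124193 bp from Foxi2 and 10486 bp from Foxl1. Relatives of the members without H3K4me3 at an end had it there. Foxa3 had 715 bp and 404 bp peaks, Foxi3 a 1026 bp peak across its start and Foxl2 its 1349 bp peak. At listed starts Foxa3 did not differ from Foxa1 and Foxa2, which also had H3K4me3 within 1 kb of a listed start. Both Foxa3 peaks lay upstream of its start, and an end of Sympk lies 838 bp from an end of Foxa3. Whether these peaks belong to Foxa3 or to Sympk was not tested. Just inside the window of 1 kb lay Foxn1, with H3K4me3 at 940 bp, and just outside it Foxa2, at 1389 bp. Counting the body as well, 38 of 41 members had H3K4me3, against 65.8% of all genes. CTCF was then at 25 and RAD21 at 28, against 57.4% and 66.9%.

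Several ends are shared with another gene, and there a peak cannot be told apart between the neighbours. Ends of other genes lay within 1 kb at 11 members. Those of protein-coding genes were Sympk at Foxa3 (838 bp away), Ppp1r16a and Kifc2 at Foxh1 (29 and 367 bp), Rnf157 at Foxj1 (846 bp), Frg2f1 at Foxj3 (892 bp), and Rhno1 and Tex52 at Foxm1 (83 and 376 bp). The noncoding neighbours were B230323A14Rik at Foxb1, Foxd2os at Foxd2, Gm12446 at Foxe1, Foxl2os at Foxl2, Gm26839 at Foxn3 and Gm46601 at Foxp4. Without these 11 members, H3K4me3 was at an end of 25 of 30, against 47.6% of the genes with no such neighbour.

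Position around the start was read for the 26 members in the promoter table. Taking the outermost listed start of each, 21 had an H3K4me3 peak within 1 kb. In 10 a peak covered the start, in 6 peaks lay downstream alone (Foxa1, Foxb2, Foxd3, Foxd4, Foxe3 and Foxj3), and in 2 upstream alone (Foxa3 and Foxn4). At Foxd2, Foxk2 and Foxo3 separate peaks lay on both sides with a gap over the start. The start in the printed Foxk2 promoter sits in such a gap, between a 460 bp and an 854 bp peak. The 460 bp peak overlaps the upstream part of the printed bases. With any listed start allowed, 22 of 26 had a peak, against 60.3% of genes in the table.

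The members with none at a listed start were Foxi1, Foxi2, Foxn1 and Foxn3, and for the Foxn genes the mark was elsewhere. At Foxn1 the 512 bp peak was 27580 bp downstream of the listed start, near the other end of the gene, together with a 152 bp CTCF and a 125 bp RAD21 peak that overlap it. At Foxn3, a long gene with a repressor product, a 742 bp peak covered the outermost annotated end, at -113963 to -113222 bp from the listed start. The widely expressed class was therefore marked at 16 of 16 ends but at 8 of 10 listed starts.

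**Figure D3:**
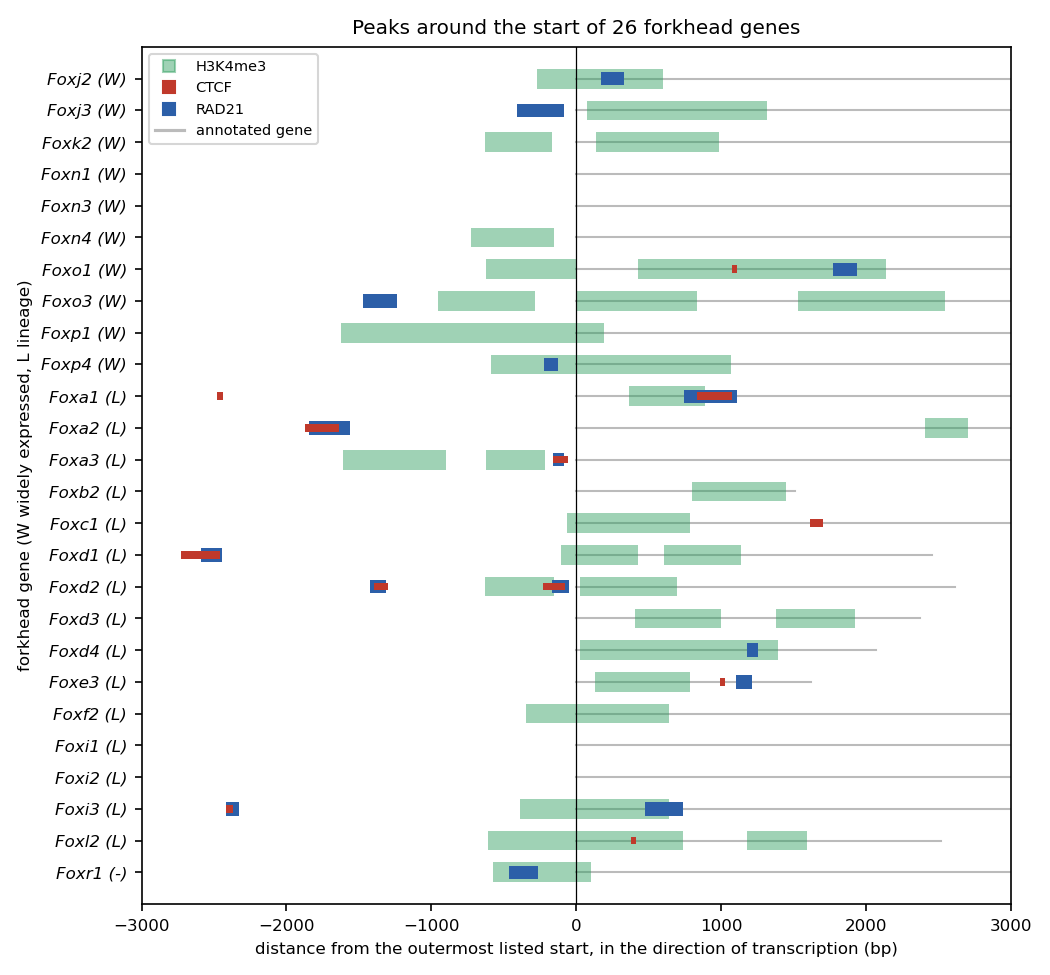
Peaks of H3K4me3, CTCF and RAD21 around the outermost listed start of the 26 forkhead genes in the promoter table (y axis, W for widely expressed and L for lineage), by distance in the direction of the gene (x axis). H3K4me3 covers or flanks the start in 21 genes, and Foxa2, Foxi1, Foxi2, Foxn1 and Foxn3 have none within 1 kb.

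The promoters of members were rich in CG dinucleotides, the base pair step at which DNA is methylated. The 30 entries held a median of 22.5 CG in 300 bases (5 to 59), against 14 over all 20085 entries in the table. The widely expressed entries had a median of 32 and the lineage entries 22. Entries with H3K4me3 within 1 kb had a median of 26 in the members and 22 in all genes, and entries without it 6 and 3. Foxk2, printed above, held 59 CG, the most of any member, and Foxi1 held 6.

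Of the members' entries, 5 held 8 CG or fewer: Foxi1, Foxi2, Foxn1, Foxn3 and the middle start of Foxp1. The limit of 8 was chosen after the values were seen. H3K4me3 was within 1 kb of 0 of these 5, and of 13.2% of the 8035 entries of all genes with so few. The other 2 starts of Foxp1, with 44 and 13 CG, were each covered by a peak, of 1194 bp and 1818 bp. The marked entries began at 10 CG, in Foxb2 and Foxe3. The other 2 unmarked entries were starts of Foxa2, with 12 and 23 CG.

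CTCF and RAD21 were less frequent at forkhead ends than H3K4me3. CTCF lay within 1 kb of an end of 13 of 41 members (31.7%) and RAD21 of 19 (46.3%), against 27.2% and 39.4% of all genes, and these shares are near the background. CTCF was at 3 of 16 widely expressed members (18.8%, interval 6.59 to 43.0%) and 10 of 24 lineage members (41.7%, interval 24.5 to 61.2%), and the intervals overlapped. RAD21 was at 8 of 16 and 10 of 24. Among all genes CTCF was at 22.3% of those under 10 kb and at 3991 of 13323 longer ones, and RAD21 at 29.6% and 44.8%. These counts moved with the window: CTCF was at an end of 6 members within 500 bp (19.6% of all genes) and of 25 within 2.5 kb (42.3%). For CTCF, Foxn1 at 914 bp was just inside and Foxo1 at 1078 bp just outside. For RAD21, Foxn1 at 886 bp was just inside and Foxn4 at 1074 bp just outside.

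Combined, 17 members had H3K4me3 alone at their ends (21.9% of all genes), 8 had H3K4me3 with RAD21 (14.1%), and 10 had all 3 (18.4%). The 17 included Foxd3, Foxh1, Foxc1, Foxc2, Foxf1 and Foxf2 of the lineage class and Foxo1, Foxo3, Foxm1, Foxk1, Foxk2 and Foxp1 of the other. The members with all 3 were Foxj1, Foxn1, Foxo6, Foxa3, Foxd2, Foxe1, Foxe3, Foxi3, Foxq1 and Foxs1. Foxa2, Foxi1 and Foxi2 had none of the 3 at an end, against 34.4% of all genes. Of the remaining 3, Foxl2 had H3K4me3 and CTCF, Foxl1 CTCF and RAD21, and Foxa1 CTCF alone.

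At the lineage members the 11 CTCF peaks ran from 37 to 186 bp, and the longer ones overlapped RAD21. Foxq1 had the longest, 186 bp at chromosome 13, 31559958 to 31560143, overlapping the end of its H3K4me3 peak and a 335 bp RAD21 peak. Foxd2 had 154 bp at chromosome 4, 114908974 to 114909127, Foxe1 126 bp at chromosome 4, 46344314 to 46344439, and Foxa3 107 bp at chromosome 7, 19023592 to 19023698. Foxs1 had 85 bp at chromosome 2, 152933782 to 152933866, and Foxl1 63 bp at chromosome 8, 121130691 to 121130753, just beyond its end. Each of these 6 peaks overlapped RAD21.

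The other 5 lineage peaks were 37 to 50 bp long and overlapped no RAD21 peak. They were 50 bp at Foxi3 (chromosome 6, 70960646 to 70960695), 40 bp at Foxa1 (chromosome 12, 57548552 to 57548591), 39 bp at Foxl2 (chromosome 9, 98955984 to 98956022), 39 bp at the far end of Foxa3 (chromosome 7, 19013934 to 19013972) and 37 bp at Foxe3 (chromosome 4, 114925041 to 114925077). A length of 37 bp is the shortest in the CTCF list. In that list as a whole, which includes peaks away from gene ends, 81.8% of peaks overlapped RAD21, against 10 of 15 at forkhead ends. Counted by gene, RAD21 was at an end of 4723 of the 5627 genes with CTCF at an end. Of the 13 members with CTCF there, all but Foxa1 and Foxl2 also had RAD21 at an end.

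In the widely expressed class CTCF was at Foxn1 (152 bp, chromosome 11, 78358491 to 78358642), Foxo6 (136 bp, chromosome 4, 120287830 to 120287965) and Foxj1. Foxj1 had 2 CTCF peaks, of 111 bp at chromosome 11, 116335425 to 116335535, across its end, and of 76 bp at 116335820 to 116335895, and both overlapped RAD21 and its single H3K4me3 peak. All 4 peaks of the class overlapped RAD21. None of the 10 members of the class in the promoter table had CTCF within 1 kb of a listed start, against 22.1% of genes in the table, while 5 of 15 lineage members did. RAD21 was within 1 kb of a listed start of 3 of 10 and 4 of 15, against 35.1%.

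RAD21 without CTCF was listed at 11 of the 21 RAD21 peaks at forkhead ends, 71 to 324 bp long. The longest were 324 bp just upstream of the start of Foxj3, 307 bp beside Foxb1, 265 bp at Foxi3 and 200 bp at Foxr1. Foxj2 had 164 bp within its H3K4me3 peak and Foxp4 101 bp within its own, both near the start. The Foxp2 peak, 71 bp, was at the shortest length in the RAD21 list. Across the whole list, which includes peaks away from gene ends, 55.9% of RAD21 peaks overlapped CTCF.

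The printed promoters show where the peaks lie. Both strands were searched for AGGGGGC, letters within the motif that CTCF is known to bind, for TGTTTAC, the letters that forkhead proteins are known to bind, and for TATAAA, those of a TATA box. A longer and looser form of the CTCF letters, CC, any 3 bases, AG, any 2 bases and GGC, was searched too, and at Foxa3 its match contains the AGGGGGC match. At Foxd2 AGGGGGC lay at -101 to -95 from the start on the printed strand, inside the CTCF and RAD21 peaks, and again at -58 to -52 on the opposite strand, inside the RAD21 peak alone. At Foxa3 AGGGGGC lay at -118 to -112, inside both peaks, and TATAAA at -36 to -31. Foxj3 and Foxp4, with RAD21 and no CTCF peak in the window, had no AGGGGGC. The looser form gave another picture: Foxj3 had a match at -168 to -157, inside its RAD21 peak, and Foxd2, with a CTCF peak, had none.

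Over the members' entries AGGGGGC was in 8 of 30 (26.7%), against 13.1% of all entries and 29.2% of entries with a CTCF peak in the 300 bases. Of the entries with a match, those of Foxd2 and Foxa3 had a CTCF peak in the window, and those of Foxa2, Foxd1, Foxe3, Foxf2 and Foxp1 (2 entries) had none. The looser form was in 5 of 30 entries (16.7%), those of Foxa3, Foxc1, Foxd1, Foxj2 and Foxj3, against 10.1% of all entries and 31.9% of those with a CTCF peak. TGTTTAC was in 1 of 30, that of Foxa1, against 3.04% of all entries. TATAAA was in 2 of 30, Foxa2 and Foxa3, against 12.7%. The background of all entries holds more unmarked promoters than the members' entries do. Among entries with H3K4me3 within 1 kb, AGGGGGC was in 7 of 23 of the members (30.4%), against 17.9% in all genes. There the looser form was in 5 (21.7%) against 13.6%, TGTTTAC in 1 (4.35%) against 2.24%, and TATAAA in 2 (8.70%) against 5.87%. A match is a description of the letters and shows no binding.

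Within gene bodies the classes differed as their lengths do. A CTCF peak in the body and clear of the end windows was in 11 of 16 widely expressed and 4 of 24 lineage members, and a RAD21 peak in 12 and 3, against 44.3% and 49.9% of all genes. Of the 10 members of 40 kb or more, all widely expressed, Foxp1 is the longest at 597405 bp and held 10 CTCF and 23 RAD21 peaks. Foxn3 held 4 and 15 in 373587 bp, and Foxp2, known for its part in speech and motor circuits, 3 and 7 in 540629 bp. Foxn2 held none of either in 49830 bp.

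Per length most of these genes held fewer CTCF peaks than the typical long gene. Pooled over the 10 members there were 1.40 CTCF and 3.01 RAD21 peaks per 100 kb, against 2.27 and 3.33 over all 5743 genes of 40 kb or more. Of the 10, 7 lay below the median of long genes in CTCF, and Foxk1, Foxk2 and Foxp4 above it with 3.30, 4.01 and 6.96 per 100 kb. Foxp4 was also high in RAD21, at 10.4 per 100 kb, and its values were above 91.6% (CTCF) and 97.4% (RAD21) of long genes. Of the 60 RAD21 peaks in the members 19 overlapped CTCF (31.7%), against 54.8% of those in all long genes. Foxp1 had 7 of 23 and Foxn3 3 of 15. Of the 60 RAD21 peaks, 15 were of the shortest length, 71 bp, against 4429 of 26218 in all long genes. Foxp1 and Foxn3 hold 38 of the 60, so the pooled share rests largely on them.

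**Figure D4:**
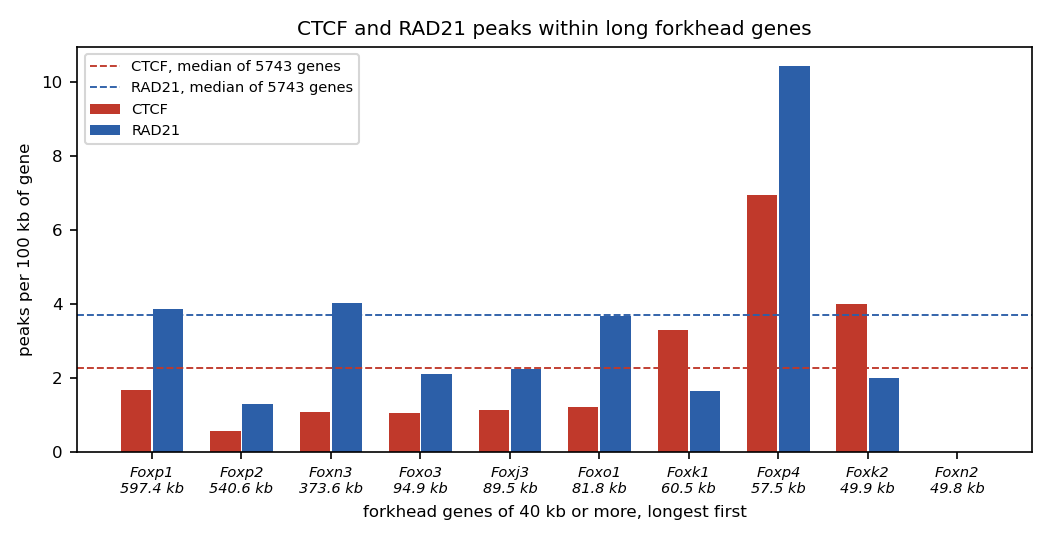
CTCF and RAD21 peaks per 100 kb of gene (y axis) in the 10 forkhead genes of 40 kb or more, longest first (x axis), with dashed lines for the medians, 2.27 and 3.71, of all 5743 genes of that length. Foxp4 stands above both lines with 6.96 and 10.4, Foxn2 is at 0, and Foxp2 has 0.555 and 1.29.

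In 3 places forkhead genes of the lineage class lie side by side. Foxq1, Foxf2 and Foxc1 span 252466 bp of chromosome 13 (31558170 to 31810635) with no other protein-coding gene between them, and the span held 11 CTCF and 16 RAD21 peaks. Of the CTCF peaks 10 overlapped RAD21, and 6 RAD21 peaks had no CTCF. The longest CTCF peak, 263 bp, lay 57559 bp past Foxq1, on the side of Foxf2. Between Foxf2 and Foxc1 CTCF peaks lay from 1242 to 169922 bp past Foxf2, and 5 RAD21 peaks without CTCF, 71 to 213 bp long, lay between 97372 and 152064 bp. Besides the peaks at the genes themselves, 2 H3K4me3 peaks of 428 and 350 bp stood between genes, and the 350 bp one overlapped a 464 bp RAD21 peak near Foxc1.

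Foxf1, Foxc2 and Foxl1 lie within 46259 bp of chromosome 8 (121084386 to 121130644), with Mthfsd between Foxf1 and Foxc2. The span held 5 CTCF, 7 RAD21 and 5 H3K4me3 peaks. All 5 CTCF peaks overlapped RAD21, and none of the 5 H3K4me3 peaks overlapped CTCF or RAD21. Foxf1 had 990 and 580 bp of H3K4me3 at one end and Foxc2 1007 bp. Between Foxc2 and Foxl1, 8790 bp apart, 1 CTCF and 1 RAD21 peak and no H3K4me3 were listed, and the unmarked Foxl1 had at its far side the CTCF peak of 63 bp, overlapped by 124 bp of RAD21.

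Foxd2 and Foxe3, in 19788 bp of chromosome 4 (114906280 to 114926067), had 5 CTCF, 5 RAD21 and 3 H3K4me3 peaks. Of the 5 CTCF peaks 4 overlapped RAD21. The CTCF peaks between the genes lay 76, 1301, 4824 and 8351 bp from Foxd2, and were 154, 98, 102 and 95 bp long. Over the autosomes there were 2.11 CTCF and 3.09 RAD21 peaks per 100 kb, while the 3 spans held 4.36, 10.8 and 25.3 CTCF and 6.34, 15.1 and 25.3 RAD21 peaks per 100 kb in the order given. The spans are bounded by genes and short, and whether other gene-bounded spans of their length hold as many was not tested. Foxj3 and Foxo6 also lie within 1 Mb, 637959 bp apart on chromosome 4, with 4 protein-coding genes between them and 20 CTCF and 26 RAD21 peaks.

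**Figure D5:**
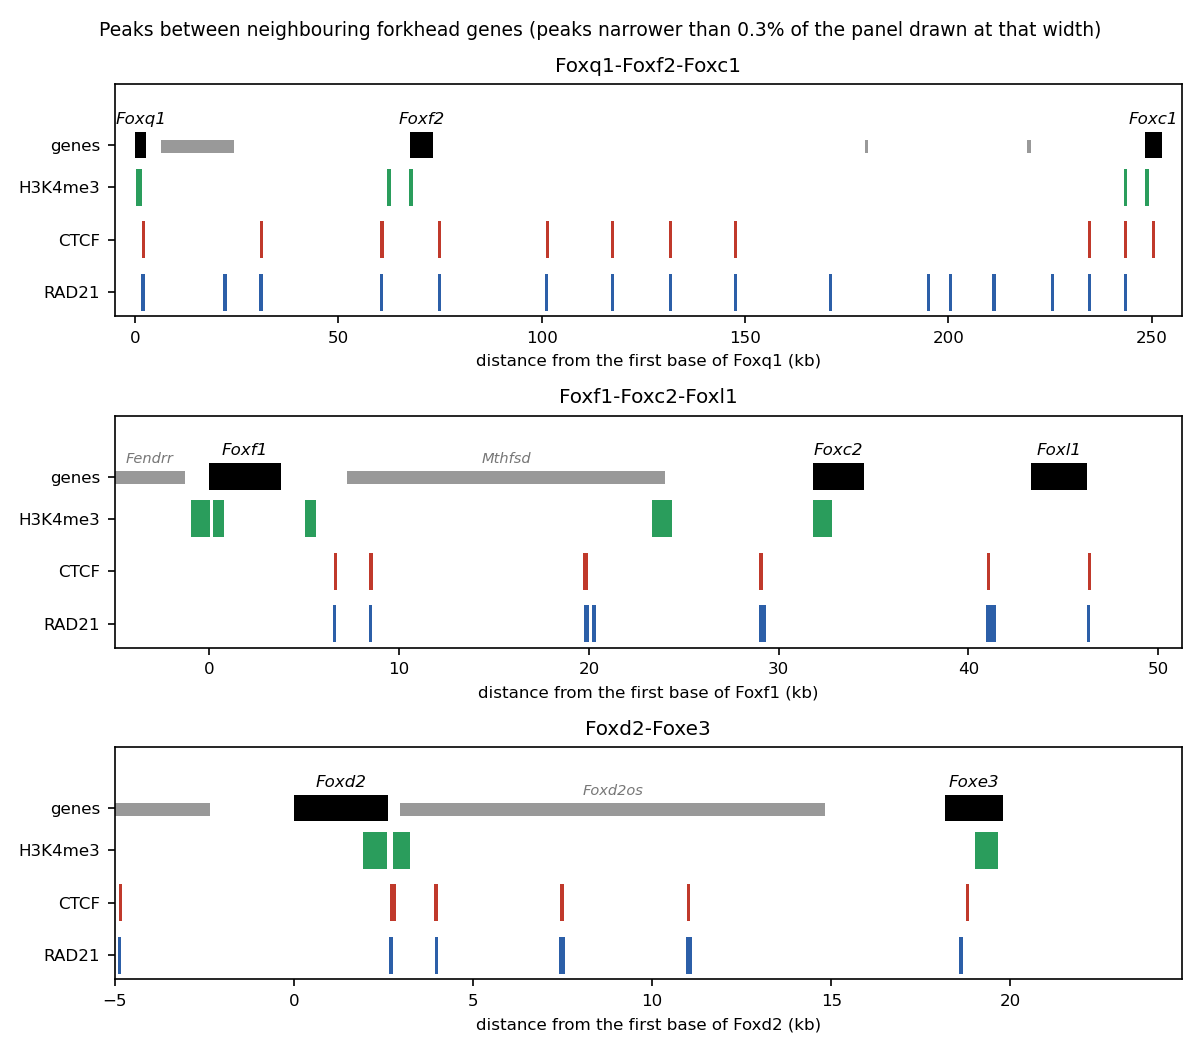
Genes and peaks along the 3 spans with neighbouring forkhead genes, by distance in kb from the first forkhead gene (x axis), with a row for the genes and for each antibody and the narrowest peaks drawn wider than they are. CTCF and RAD21 peaks stand together at most places, H3K4me3 stands at the forkhead genes other than Foxl1, and 5 RAD21 peaks without CTCF follow each other between Foxf2 and Foxc1.

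Genes that act with forkhead factors were read the same way, and the shares over all genes to set beside them are 58.0% for H3K4me3, 27.2% for CTCF and 39.4% for RAD21. Of 16 genes upstream of FOXO proteins in insulin signalling, 13 had H3K4me3 at an end (81.2%), 5 CTCF (31.2%) and 7 RAD21 (43.8%), the last pair near those of all genes. Akt2, a kinase that phosphorylates FOXO proteins, had the longest H3K4me3 peak, 1604 bp, and Xpo1, their nuclear exporter, 1541 bp. Akt1 and Ywhaz were among those with none at an end, and had 1 and 3 in the body. Of 14 genes of Nodal signalling, in which FOXH1 acts, 12 had H3K4me3 (85.7%), 5 CTCF (35.7%) and 7 of 14 RAD21. Smad3 had 1796 bp and the ligand Nodal 1750 bp, and the inhibitor Lefty1 was among those with none at an end. Foxh1 itself had 655 bp at an end, outside the gene, and 753 bp in the body. Ends of other genes lie within 1 kb of the ends of Foxh1.

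All 12 mitotic targets of FOXM1 had H3K4me3 at an end, 4 had CTCF (33.3%) and 8 RAD21 (66.7%), against the same 58.0%, 27.2% and 39.4%. The kinases Aurka and Plk1 had the longest H3K4me3 peaks, 2086 and 1780 bp, beside 1449 bp at Foxm1. The RAD21 peaks at Ccnb2, Plk1 and Birc5 were 71 bp long, the shortest length in that list. Those of the other genes with RAD21 ran from 75 bp at Ccnb1 to 292 bp at Cenpe. Of 11 endoderm regulators that work with FOXA proteins, 8 had H3K4me3 (72.7%), 1 CTCF (9.09%) and 3 RAD21 (27.3%). Sox17 had 1808 bp and Hhex 1717 bp, while Gata4 and Hnf4a, like Foxa1 and Foxa2, had none at an end. In the body Gata4 had 1 H3K4me3 peak and Hnf4a 0. The median longest peak was 613 bp in this list, 1033 bp in the FOXM1 list, 1123 bp in the FOXO list and 1267.5 bp in the Nodal list.

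Beside 2 other families of developmental regulators, H3K4me3 was at an end of 14 of 18 Sox genes (77.8%, interval 54.8 to 91.0%) and 2 of 5 Gata genes (interval 11.8 to 76.9%). For H3K4me3 the share over all genes was 58.0%. CTCF was at an end of 7 Sox genes (38.9%) and 1 Gata gene, against 27.2% of all genes. RAD21 was at 10 Sox genes (55.6%) and 1 Gata gene, against 39.4%. The H3K4me3 intervals of both families overlapped that of the lineage forkhead genes. Sox10 and Sox14 had none of the 3 at an end, as had Foxa2, Foxi1 and Foxi2, and so had Gata2, Gata3 and Gata4. With the body counted, H3K4me3 was at 5 of 5 Gata and 15 of 18 Sox genes, against 65.8% of all genes. At listed starts it was at 3 of 3 Gata and 11 of 13 Sox genes in the promoter table, against 60.3%. The low Gata share at outermost ends is therefore no absence of the mark from these genes.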

How the data were processed

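The authors deposited each peak list as chromosome, start and end, with no score, count or height, so where a peak lies and its length in bp were the only values. The submitters' processing notes name the build mm10 and the tools MACS2, bedtools 2.30.0, Picard 2.27.4 and Bowtie2 2.4.5. The calling threshold, any control and the way the CTCF union was made are not stated in the labels. Depth is unknown, and a gene without a peak has only none listed. The first CTCF library's own peaks were not analysed here.

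To each listed peak start 1 base was added, so that the positions given here are 1-based. Genes on the 19 autosomes came from the RefSeq table of GRCm38.p6, which gives outermost ends without strand. A peak within 1 kb of either end was counted at the end, and one that overlapped the gene clear of those windows in the body. Strand, starts and sequence came from the promoter table (26 of 41 members). Python 3.11.15, pandas 2.3.3, scipy 1.17.1 and matplotlib 3.10.9 were used, and overlaps were tested on simulated data and checked against bedtools 2.31.1. With 1 list per antibody no test was made. Lengths and positions were given for the longest H3K4me3 peak of the 3 members of each class where it was longest. They were also given for CTCF peaks at an end and for the H3K4me3 peaks of members marked in the body alone. For neighbours under 1 Mb apart peaks were counted, and only some were described singly. In each list of other genes the rule named the first 2 unmarked and the 2 with the longest H3K4me3 peak, and other names complete a group or were chosen after their values were seen. Members and lists were chosen with earlier results of these data known. The planned comparison of proteins was not run. Some genes that these rules select are not reported here by name and stay in the counts, and 1 of them, a member, is not drawn.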

Additional observations from a re-analysis of the deposited data

How the results depend on the processing

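Across 9 alternatives 46 of 78 counts stayed within 1.5 times the reported one, 23 of 26 for H3K4me3. At listed starts alone, with fewer genes, H3K4me3 was at 22 of 26 members and 8 of 10 widely expressed ones, CTCF at 5, 0 and 5 (all members, widely expressed, lineage) and RAD21 at 8, 3 and 4 (all genes 60.3, 22.1 and 35.1%). With peaks above the median length, H3K4me3 was at 11 lineage members, CTCF at 7 members and 4 lineage ones, and RAD21 at 7, 3 and 3 (all genes 44.0, 17.1 and 24.0%). A window of 500 bp gave CTCF at 6, 1 and 5 and RAD21 at 5 widely expressed members (all genes 19.6 and 30.9%). A window of 2.5 kb gave CTCF at 25, 8 and 17, and RAD21 at 29 members and 17 lineage ones (42.3 and 55.0%). Ends and body together gave CTCF at 25 members and 13 widely expressed ones, and RAD21 at 15 widely expressed ones (57.4 and 66.9%). Without members near another gene's end, CTCF was at 8 members and 6 lineage ones and RAD21 at 12, 5 and 6 (22.9 and 33.9%). With Foxj1, Foxn1 and Foxn4 moved to the lineage class, CTCF was at 1 widely expressed member. The order of the classes in CTCF at an end (lineage share higher) turned once the body was counted, 13 of 16 against 12 of 24, and with peaks above the median length, 3 of 16 (18.8%) against 4 of 24 (16.7%). The order in H3K4me3 (widely expressed share higher) turned at listed starts, 8 of 10 against 13 of 15, and that in RAD21 (likewise) within 2.5 kb, 11 of 16 against 17 of 24. No paired analysis was possible because each antibody has 1 list and no test was made.

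Limits: without heights, depth or a control, a short peak cannot be graded and a missing one shows only that none was called. Both ends count as the gene's, so long genes with several starts and genes beside a neighbour can gain or lose a mark. The classes differ in gene length, and length and class cannot be told apart here.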

Other observations

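Forkhead genes outside the rule were read in the same way. On the X chromosome Foxo4 had a 671 bp H3K4me3 peak at an end and a RAD21 peak in its body, while Foxp3, the regulator of regulatory T cells, and Foxr2 had no peak of the 3 antibodies at an end or in the body. Of the long noncoding RNA genes beside forkhead genes, Fendrr had the 990 bp H3K4me3 peak at the end of Foxf1 within 1 kb of its own end. Foxl2os shared the 1349 bp peak of Foxl2 and also had a 111 bp RAD21 peak at an end, and Foxd2os had 2 peaks of each antibody at its ends. Foxo6os had no H3K4me3, and 1 CTCF and 1 RAD21 peak in its body.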
